A study of Mus musculus with 111 samples.

Results

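Htt, the mouse gene for huntingtin, and 9 other genes of mouse chromosome 5 were followed across all 24 groups of the array series. The 10 genes, of 18194 measured, were Htt, Grk4, Add1, Sh3bp2, Tnip2, Nop14, Rgs12, Mfsd10, Fam193a and Abhd1. Each was read through the probe sets annotated to its symbol alone, which were 21 of 45101 in all, and the probe set with the highest mean over the 111 arrays stood for the gene. Htt had 4 such probe sets. The list was drawn up with earlier results of these arrays known, so counts over it are descriptions, read beside the share of all genes. The first 9 were Htt and genes near it, but Msantd1, the measured gene directly after Htt, was not on the list. Abhd1 was selected on its zQ175 values in these arrays. Every contrast of Abhd1 that involves the groups in months is therefore given as a description, with no test.

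The arrays measured RNA of cells sorted from the striatum of mice in 3 fractions by the surface proteins GLT1 and CD11b. Astrocytes were GLT1+/CD11b-, microglia were GLT1-/CD11b+, and the cells with neither (GLT1-/CD11b-) are called negative cells. R6/2 mice and their wild-type (WT) controls were taken at 6 weeks (5 R6/2 and 5 WT samples in each fraction) and at 12 weeks (6 R6/2 and 5 WT). zQ175 mice and their WT controls were taken at 6 and at 12 months, with 4 samples of each genotype at each age and in each fraction. A sample was a pool of the striata of one genotype from a litter, and its number appeared once in each fraction. Strain, zygosity and repeat length were not given in the labels used here, and the R6/2 and zQ175 mice shared no age, so model, age and cohort cannot be told apart.

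The labels of the fractions were set against marker lists in the 18 WT samples of each. The mean log2 level of 7 astrocyte markers was 12.41 in astrocytes, 8.56 in microglia and 9.30 in negative cells, and that of 5 microglia markers was 5.21, 12.29 and 5.34. The negative cells had the highest levels of endothelial and mural (11.89) and oligodendrocyte precursor markers (10.28), and oligodendrocyte markers were at 12.54 in astrocytes, 9.85 in microglia and 12.36 in negative cells. General neuron markers were also highest in negative cells (8.99). Medium spiny neuron markers were at 6.38 in astrocytes, 5.43 in microglia and 6.26 in negative cells. WT samples 12 and 20, both at 12 weeks, lacked Y-linked expression in each fraction while the R6/2 samples of that age had it, so each R6/2 12-week call on the 10 genes that was lost without these 2 samples is given both ways. In such bulk samples, fewer cells of a type and less RNA per cell cannot be told apart.

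Huntingtin is a large scaffold protein used in vesicle transport and in many protein complexes, and an expanded CAG repeat in the first exon of its gene causes Huntington's disease. The models differ in where the mutation sits. R6/2 mice keep both of their own Htt alleles and have, inserted elsewhere in the genome, a short human HTT transgene that ends soon after the repeat, whereas in zQ175 mice the expanded repeat was knocked into the mouse Htt gene itself, at its place on chromosome 5. The neighbours of Htt have unrelated roles. Grk4 encodes a kinase of G-protein-coupled receptors and Rgs12 a protein that ends G-protein signals. Add1 encodes alpha-adducin of the spectrin and actin skeleton, Sh3bp2 a signalling adaptor of immune cells, Tnip2 an A20-binding inhibitor of NF-kappaB, Nop14 a nucleolar factor for the small ribosomal subunit, and Mfsd10 a transporter of the major facilitator family. Abhd1 encodes a protein with an alpha/beta hydrolase fold.

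By start position in the RefSeq table of GRCm38.p6, counted in measured genes, the order before Htt was Fam193a, Tnip2, Sh3bp2, Add1, Mfsd10, Nop14 and Grk4, with Grk4 directly next to Htt, and Rgs12 was the second gene after it. Abhd1 was not a near neighbour, since 66 measured genes stood between it and Htt. A promoter window was matched for 9 of the 10 genes. Shown here are the 250 bases before the start of Htt, because the results turn on the level of this gene, and the whole 230 bases between the starts of Nop14 and Grk4, the genes just before Htt, which point away from each other. Both are on the plus strand of GRCm38.p6 from RefSeq, with GC boxes (GGGCGG, on either strand) and a CRE (TGACGTCA) in capitals.
Htt upstream, chr5:34761490-34761739: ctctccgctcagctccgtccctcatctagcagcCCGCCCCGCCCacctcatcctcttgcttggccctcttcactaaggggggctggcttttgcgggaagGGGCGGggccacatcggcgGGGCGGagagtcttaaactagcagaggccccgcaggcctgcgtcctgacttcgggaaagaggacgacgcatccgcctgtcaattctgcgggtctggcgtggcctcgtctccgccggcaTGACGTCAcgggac
Nop14 to Grk4, chr5:34660149-34660378: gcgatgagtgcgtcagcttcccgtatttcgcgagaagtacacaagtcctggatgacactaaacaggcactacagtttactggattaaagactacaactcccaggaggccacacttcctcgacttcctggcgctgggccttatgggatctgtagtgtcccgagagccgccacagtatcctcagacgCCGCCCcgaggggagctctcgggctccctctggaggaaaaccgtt
The Htt stretch was 66.4% G and C, against a median of 52.4% over the 32851 windows of the table, and the Nop14 to Grk4 stretch was 56.5%. Searched on both strands, GGGCGG occurred 4 times before Htt, with 2 of the 4 sharing a base, and once between Nop14 and Grk4. Of all windows of the same length, 32.7% (250 bases) and 32.1% (230 bases) held it. TGACGTCA occurred once before Htt, as in 1.55% of all windows, and neither CCAAT nor TATAAA occurred in either stretch. These are matches of letters in a window and describe no binding.

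The Htt level was higher in R6/2 astrocytes than in their WT controls at 12 weeks and lower in zQ175 astrocytes than in theirs at 12 months, and the difference between these effects passed the test. All levels are log2 values of robust multi-array averaging (RMA), differences are in log2 units with their standard errors (SE), and a gene is called where limma's p lies below 0.05 once adjusted (Benjamini-Hochberg) over every gene tested in that contrast. In astrocytes at 12 months the zQ175 samples had Htt levels of 7.89, 8.42, 8.25 and 8.40, and the WT samples 8.61, 8.63, 9.14 and 8.60. All 4 zQ175 samples lay below all 4 WT samples, and 12.7% of all genes were as fully separated in either direction. The difference was -0.50 ± 0.20 (SE), a level 1.42-fold lower, with an adjusted p of 0.161, and was not called. It was called where the R6/2 groups shared the fit (adjusted p = 0.0452). At 6 months the zQ175 levels were 8.55, 8.14, 7.72 and 7.78 and the WT levels 8.59, 8.32, 8.20 and 8.84, so the groups overlapped, and the difference of -0.44 ± 0.20 was not called (adjusted p = 0.665).

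In R6/2 astrocytes at 12 weeks the 6 Htt levels ran from 8.67 to 9.17, with a median of 8.78, and the 5 WT levels were 8.29, 8.66, 8.57, 8.67 and 8.58. Every R6/2 sample lay above every WT sample, by a narrow margin, and 14% of all genes were as fully separated. Htt was 0.27 ± 0.09 higher, a 1.21-fold difference, with an adjusted p of 0.0329. The call was lost without WT samples 12 and 20 (0.19, adjusted p = 0.190), and also without any one of R6/2 samples 11, 17 and 21 or of WT samples 12, 16 and 20 (adjusted p from 0.0502 to 0.101), and with array weights, with arrays re-centred on their medians or with all 8 groups in a fit (0.0902, 0.138 and 0.129). At 6 weeks the R6/2 levels of 8.86, 8.56, 8.65, 8.53 and 8.81 overlapped the WT levels of 8.72, 8.59, 8.77, 8.76 and 8.62, with a difference of -0.01 ± 0.10.

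The zQ175 effect at 12 months minus the R6/2 effect at 12 weeks was -0.77 ± 0.20 for Htt in astrocytes, with a 95% confidence interval from -1.19 to -0.36 and an adjusted p of 0.0136. Of all genes, 10.1% were called in this contrast. Htt was the only 1 of the 9 tested genes of the list that was called there. The call held with each of the 37 astrocyte samples left out in turn and without WT samples 12 and 20, where the difference was -0.70 (adjusted p = 0.0485). At an unadjusted p below 0.05, 3 of the 9 passed, beside 3075 of the 12270 genes tested. The difference of the earlier ages, 6 months against 6 weeks, was -0.43 ± 0.21 for Htt and was not called. Those of the other 8 genes were not called either (0.0815% of all genes were). Here 1 of the 9, beside 665 of the 12270 genes tested, had an unadjusted p below 0.05.

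In microglia and negative cells no genotype effect on Htt was called. The microglia of zQ175 mice at 12 months had Htt levels of 8.45, 8.91, 8.77 and 9.01, against 9.23, 8.66, 9.14 and 9.21 in WT. All 4 zQ175 levels lay below 3 of the 4 WT levels, and the groups overlapped through WT sample 35, with a difference of -0.28 ± 0.27. The zQ175 negative cells at 12 months had levels of 8.42, 8.14, 9.03 and 7.90, spread more widely than the 8.17, 8.42, 8.39 and 8.50 of WT, and the difference was -0.00 ± 0.21. With the mean of the 4 probe sets in place of the brightest it was 0.26 (adjusted p = 0.387). At 6 months the negative cells of zQ175 had 7.90, 7.57, 7.68 and 7.73, the lowest mean of all 24 groups (7.72), against 8.08, 8.26, 8.45 and 7.73 in WT. That difference was -0.41 ± 0.21 and the microglial one at 6 months -0.44 ± 0.27, and neither was called. In R6/2 at 12 weeks, the Htt effect was -0.04 in microglia and 0.35 ± 0.16 in negative cells (adjusted p = 0.111), where R6/2 samples 19 (8.99) and 21 (9.19) stood above the other 4 (8.09 to 8.31). The late difference between the models was -0.23 ± 0.29 in microglia and -0.35 ± 0.26 in negative cells, with adjusted p of 0.832 and 0.375. When the probe sets were averaged, the negative-cell difference turned to 0.13 (adjusted p = 0.772). No gene of the list was called in these contrasts (1.92% and 10.7% of all genes) or in those of the earlier ages (0.215% and 0%). At an unadjusted p below 0.05, 3 and 0 of the 9 passed at the late and 1 and 1 at the earlier ages. Of all genes tested, 1590 of 12108 in microglia and 3582 of 12541 in negative cells passed at the late ages. At the earlier ages 493 and 334 passed. The zQ175 effect on Htt at 12 months did not pass the test of a difference between any pair of fractions, the closest being astrocytes minus negative cells at -0.50 (adjusted p = 0.386).

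Among the 24 group means, the microglia of the mice in weeks took the top 4 places, from 9.26 to 9.35. No neighbour in this order differed from the next by more than the larger of their SDs, in any of 23 gaps, the largest of which was 0.33. In WT samples the order of the fractions was clear. Htt was at 9.12 ± 0.39 (SD, n = 18) in microglia, 8.62 ± 0.21 in astrocytes and 8.27 ± 0.21 in negative cells, and each of the 3 differences was called.

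**Figure D1:**
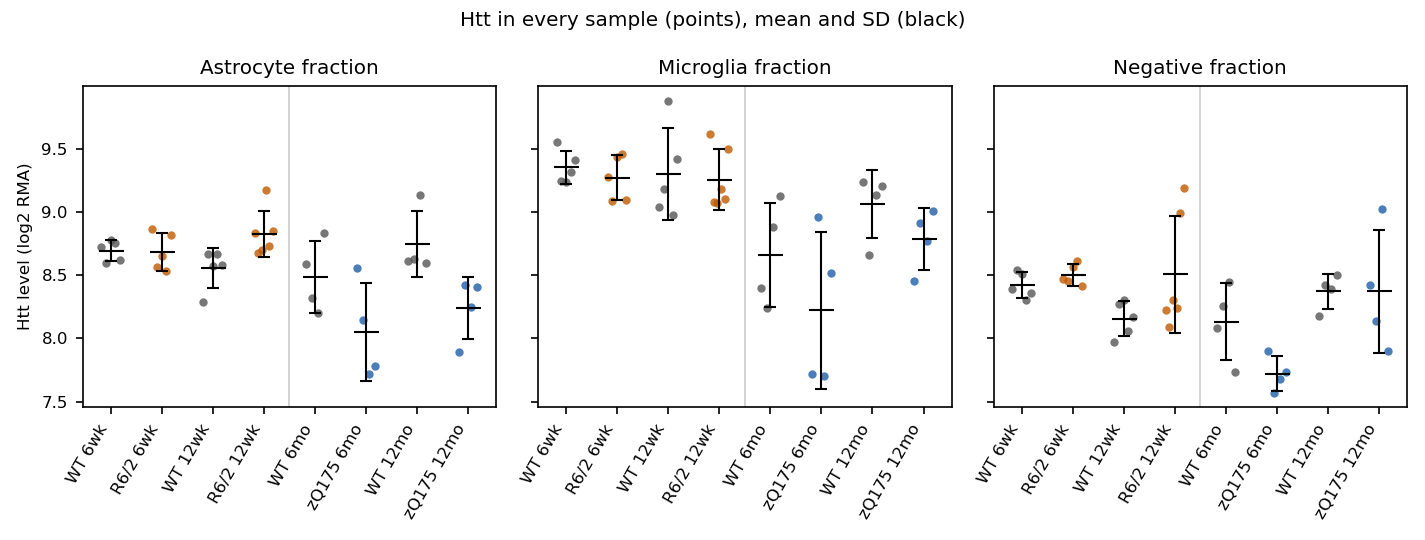
Htt level (log2 RMA, vertical axis) of every sample (points, WT grey, R6/2 orange, zQ175 blue) in the 8 groups of each fraction, with black bars at the mean and SD. In astrocytes all 4 zQ175 samples at 12 months lie below their WT controls and all 6 R6/2 samples at 12 weeks lie above theirs, and microglia in weeks have the highest levels.

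The single Htt probe sets did not all show the astrocyte difference. Fitted over all 45101 probe sets without a filter, the late difference between the models in astrocytes was -0.77 ± 0.21 for 1425969_a_at (adjusted p = 0.0278), the one that stands for the gene, and -0.91 ± 0.26 for 1456667_at (adjusted p = 0.0427). Of all probe sets, 3.92% were called. The other two also had values below 0 but were not called, at -0.65 ± 0.31 for 1446337_at (adjusted p = 0.262) and -0.25 ± 0.37 for 1435539_at (adjusted p = 0.783). None of the 4 was called in any of the 12 contrasts of a mutant with its WT controls at the level of probe sets, 1425969_a_at in R6/2 astrocytes at 12 weeks included (adjusted p = 0.0647).

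In astrocytes, 1456667_at was at 6.84, 6.88, 6.90 and 7.15 in zQ175 at 12 months and at 7.65, 7.56, 7.84 and 7.09 in WT. It ran from 7.998 to 8.431 in R6/2 at 12 weeks, with a median of 8.16, and was at 8.04, 7.99, 8.12, 7.53 and 7.61 in WT. The zQ175 samples lay below 3 of the 4 WT samples, and R6/2 overlapped WT. The probe set 1435539_at differed from the rest in the negative cells at 12 months, where it was at 7.39, 6.70, 8.55 and 6.92 in zQ175 and at 6.13, 6.13, 6.52 and 6.73 in WT. In zQ175, 3 of the 4 samples exceeded every WT sample, by a mean difference of 1.01 ± 0.37 that was not called (adjusted p = 0.130). The part of the Htt transcript that each probe set reads was not analysed here, so none of them checks the genotype labels, and whether any detects the R6/2 transgene was not tested.

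**Figure D2:**
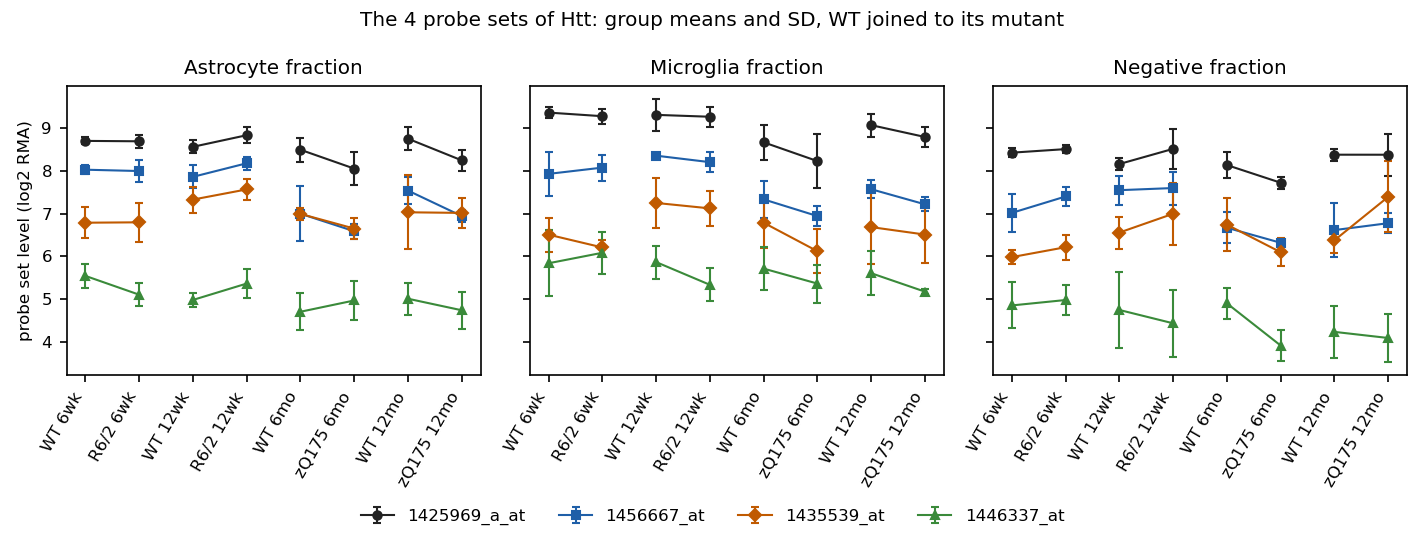
Group means with SD (log2 RMA, vertical axis) of the 4 Htt probe sets in each fraction, with each WT group joined by a line to its mutant. In astrocytes at the later ages the lines of 1425969_a_at and 1456667_at go up in R6/2 and down in zQ175, and 1435539_at goes up from WT to zQ175 in negative cells at 12 months.

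Abhd1 was higher in zQ175 than in WT in every fraction and at both ages, and in R6/2 astrocytes at 12 weeks it was lower. The zQ175 values chose the gene and are given without a test. In astrocytes at 6 months Abhd1 was at 10.36, 10.38, 9.98 and 10.60 in zQ175 and at 7.93, 8.10, 7.98 and 8.38 in WT, 4.70-fold higher. At 12 months it was at 10.40, 10.43, 10.03 and 10.05 against 8.05, 7.82, 8.21 and 7.94, 4.67-fold higher. The gap between the groups was wider than the range within either, and the difference was 2.23 ± 0.15 at 6 months and 2.22 ± 0.15 at 12 months. None of the 7 astrocyte markers was called in these astrocytes, where 0.38% of all genes were called at 6 months and 5.9% at 12 months. The endothelial and mural markers, also not called, had a median effect of -1.22 at 6 months and -0.11 at 12 months. At 12 months 1 of 5 neuron markers was called higher. The part of cell make-up in the Abhd1 difference was not tested.

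In microglia Abhd1 was at 9.20, 8.83, 8.78 and 8.62 in zQ175 at 6 months against 7.23, 7.20, 7.70 and 7.53 in WT, and at 9.11, 8.70, 9.23 and 8.74 at 12 months against 7.87, 7.77, 7.75 and 7.66. In negative cells it was at 7.89, 6.96, 7.58 and 7.12 against 6.26, 5.73, 6.22 and 6.00 at 6 months, and at 7.84, 7.72, 8.27 and 7.90 against 6.58, 6.80, 6.47 and 7.01 at 12 months. No zQ175 sample fell to the level of a WT sample in either fraction. Such full separation held for 5.12% of all genes in astrocytes, 2.55% in microglia and 2.01% in negative cells at 6 months, and for 12.7%, 9.46% and 18.6% at 12 months. The differences were 2.72-fold and 2.27-fold in microglia and 2.52-fold and 2.33-fold in negative cells, smaller than in astrocytes. At 12 months 2 of 5 oligodendrocyte, 1 of 2 oligodendrocyte precursor and 1 of 5 neuron markers were called higher in microglia (3.15% of all genes were called). In negative cells 1 of 2 microglia markers was called higher and 1 of 4 medium spiny neuron markers lower (6.93% of all genes). The other marker lists had no call there. The part of cell make-up in the Abhd1 and Htt values of these cells was not tested.

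The R6/2 values did not choose the gene. In astrocytes at 12 weeks Abhd1 ran from 9.56 to 10.07 in R6/2, with a median of 9.80, and was at 11.13, 10.91, 11.14, 11.52 and 10.75 in WT. All 6 R6/2 samples were below all 5 WT samples, and 14% of all genes were as fully separated in either direction. The level fell by 1.29 on the log2 scale (SE 0.31, adjusted p = 0.00379), a 2.44-fold difference, and the call held with each of the 21 samples left out in turn and without WT samples 12 and 20 (-1.39, adjusted p = 0.0125). In these samples 2 of 7 astrocyte markers were called lower too, near the 28.7% of all genes called in either direction in this contrast. The mean of that list ran from 12.11 to 12.40 in R6/2 and from 12.37 to 12.58 in WT. The part of these markers in the fall of Abhd1 was not tested. At 6 weeks the R6/2 levels of 10.71, 9.46, 9.15, 8.98 and 9.91 overlapped the WT levels of 10.88, 9.56, 8.99, 10.68 and 10.26, and the difference of -0.43 ± 0.32 was not called. These 6-week astrocyte groups were unusually spread for Abhd1, with SDs at the 98.7th percentile of all genes in WT and the 98.3rd in R6/2.

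The R6/2 effects in the other fractions were not called. In microglia at 12 weeks Abhd1 ran from 8.94 to 9.56 in R6/2 and was at 9.59, 9.27, 10.45, 9.93 and 9.49 in WT, a difference of -0.49 ± 0.22 (adjusted p = 0.202). In negative cells it ran from 7.84 to 8.40 in R6/2 and was at 8.34, 8.42, 8.75, 9.07 and 8.19 in WT, a difference of -0.42 ± 0.20 (adjusted p = 0.129). Most R6/2 samples were below most WT samples in both, with overlap. At 6 weeks the differences were -0.11 in microglia and 0.02 in negative cells.

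The WT levels of Abhd1 themselves differed between the mice in weeks and those in months. The mean of the WT groups in months was lower than that of the WT groups in weeks by 2.53 ± 0.20 in astrocytes, by 1.58 ± 0.15 in microglia and by 1.68 ± 0.15 in negative cells. The zQ175 astrocytes, at 9.98 to 10.60, thus lay within the range of the WT astrocytes in weeks (8.99 to 11.52), and the WT astrocytes in months, at 7.82 to 8.38, below it. Over all WT samples, again without a test, the Abhd1 level of astrocytes was 0.99 ± 0.15 above that of microglia and 2.14 ± 0.15 above that of negative cells, and microglia were 1.15 ± 0.15 above negative cells.

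**Figure D3:**
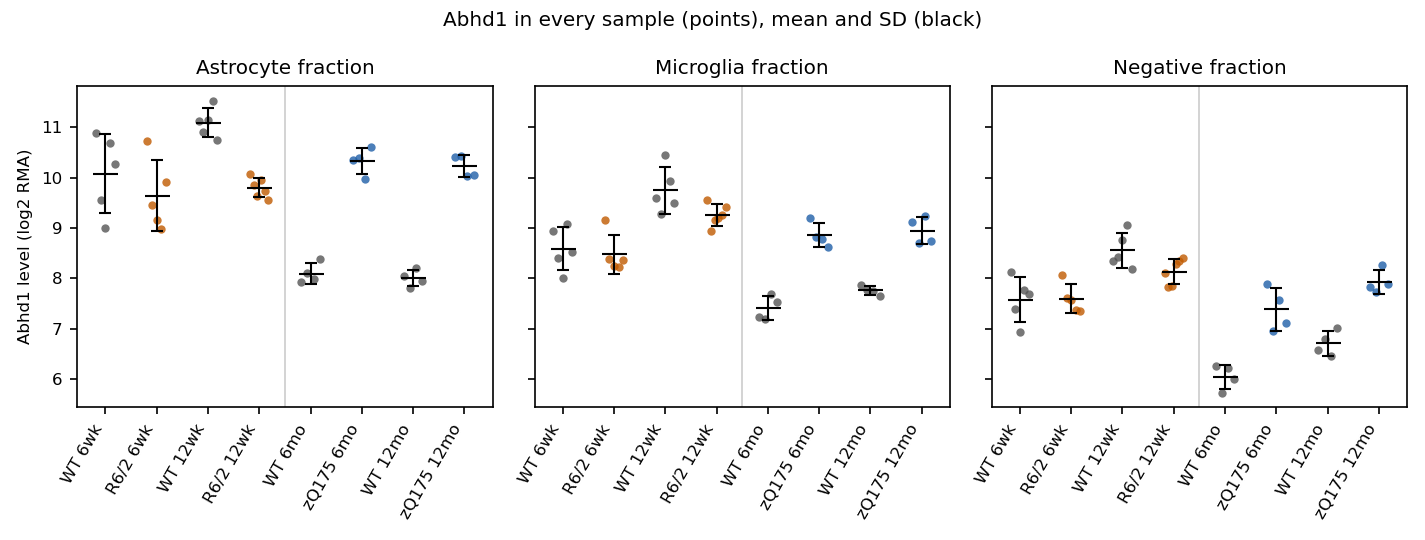
Abhd1 level (log2 RMA, vertical axis) of every sample (points, WT grey, R6/2 orange, zQ175 blue) in the 8 groups of each fraction, with black bars at the mean and SD. zQ175 samples stand above their WT controls in all 6 comparisons, R6/2 astrocytes at 12 weeks stand below theirs, and WT group means in months stand below WT group means in weeks.

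In R6/2 astrocytes at 12 weeks, 5 of the 10 genes were called, in a contrast that called 28.7% of all genes. Htt, Grk4 and Tnip2 were higher and Abhd1 and Add1 were lower. Tnip2, the NF-kappaB inhibitor, ran from 7.73 to 8.17 in R6/2, with a median of 7.99, and was at 7.25, 7.24, 7.53, 7.46 and 7.13 in WT. Every R6/2 sample exceeded every WT sample, where 14% of all genes were as fully separated in either direction. The rise was 0.64 ± 0.10 (adjusted p = 7.64e-05). Grk4, the receptor kinase gene next to Htt, ran from 7.43 to 8.34 with a median of 7.88, and was at 7.22, 7.32, 7.56, 6.95 and 7.16 in WT. The groups overlapped slightly and all 6 R6/2 samples lay above the WT mean, with a rise of 0.67 ± 0.15 (adjusted p = 0.00238).

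Add1 fell by a small step in R6/2. In astrocytes at 12 weeks it ran from 12.37 to 12.54 in R6/2, with a median of 12.42, and was at 12.59, 12.54, 12.63, 12.62 and 12.62 in WT. The groups did not overlap, by a margin within the rounding, as for 14% of all genes. Add1 was lower by 0.17 ± 0.05 (adjusted p = 0.00878). The other two Add1 probe sets, fitted among all probe sets, fell by 0.48 ± 0.08 (adjusted p = 0.000623) and by 0.70 ± 0.14 (adjusted p = 0.00235). In microglia Add1 ran from 11.66 to 11.78 in R6/2 and was at 11.95, 11.94, 12.01, 11.86 and 11.83 in WT, with no overlap (as for 4.02% of all genes) and a difference of -0.22 ± 0.06 (adjusted p = 0.0429). That was the only 1 of the 10 genes called in R6/2 microglia at 12 weeks, against 6.08% of all genes, and the call was lost without WT samples 12 and 20 (-0.24, adjusted p = 0.0846) and in 15 of the 21 fits that left out 1 sample (adjusted p from 0.0514 to 0.0895).

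At the earlier age the same direction was seen for Add1 without a call. In astrocytes at 6 weeks it was at 12.52, 12.41, 12.45, 12.47 and 12.40 in R6/2 and at 12.54, 12.60, 12.57, 12.64 and 12.58 in WT, and in negative cells at 12.37, 12.28, 12.17, 12.39 and 12.22 against 12.46, 12.40, 12.54, 12.51 and 12.50. R6/2 lay wholly below WT in both, as did 4.5% and 4.82% of all genes, in either direction, in these comparisons. None of the 10 genes was called at 6 weeks in any fraction, where 1.2% of all genes were called in astrocytes, 0.41% in microglia and 0.377% in negative cells. At an unadjusted p below 0.05, 1, 0 and 2 of the 10 passed, beside 1540 of 12209, 1104 of 11958 and 862 of 12480 genes tested. In R6/2 microglia at 6 weeks and negative cells at 12 weeks none of the 10 was fully separated from WT, as 2.89% and 9.45% of all genes were.

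In R6/2 negative cells at 12 weeks Grk4 was the 1 gene of the 10 that was called, in a contrast that called 26.2% of all genes. Its levels ran from 6.49 to 7.67 in R6/2, with a median of 7.04, and were 5.88, 6.43, 5.13, 6.31 and 7.40 in WT. WT sample 20 lay within the R6/2 range and WT sample 16 far below the rest, and the difference was 0.79 ± 0.28 (adjusted p = 0.0403). The call was lost in 7 of the 21 fits that left out 1 sample (adjusted p from 0.0563 to 0.138), and without WT sample 16 the difference was 0.52. The second Grk4 probe set was called in negative cells (0.83 ± 0.24, adjusted p = 0.0244) and not in astrocytes (0.44 ± 0.20, adjusted p = 0.147). Astrocyte markers moved in the same cells, with 6 of 7 higher in R6/2 negative cells at 12 weeks, and the mean of that list ran from 9.61 to 10.49 in R6/2 and from 8.41 to 8.96 in WT. Grk4 was higher in astrocytes than in negative cells of WT mice, and the part of the astrocyte markers in its rise was not tested.

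The R6/2 effect on Tnip2 depended on the fraction. It was 0.64 in astrocytes, 0.26 ± 0.12 in microglia and -0.27 ± 0.15 in negative cells, and only the first was called. The effect in astrocytes exceeded that in negative cells by 0.91 ± 0.18 (adjusted p = 0.000101), and the effect in microglia exceeded it by 0.53 ± 0.18 (adjusted p = 0.0234). Tnip2 was the 1 gene of the 10 called in each of these contrasts, which called 18.7% and 22.4% of all genes. Astrocytes and microglia did not differ by the test (0.38, adjusted p = 0.183), where 9.6% of all genes were called. In R6/2 negative cells at 12 weeks 6 of 7 astrocyte markers were higher, where 26.2% of all genes were called. In WT mice Tnip2 was at 6.97 in astrocytes and 7.51 in negative cells. The part of the astrocyte markers in the Tnip2 differences was not tested.

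No gene of the list other than Abhd1, which was not tested, was called in zQ175 at either age. In astrocytes all other 9 were tested, and 0 were called at 6 months (0.38% of all genes) and 0 at 12 months (5.9%). At each age 1 of 9, Htt, had an unadjusted p below 0.05, beside 884 and 2487 of the 12380 genes tested. In microglia and negative cells 8 were tested, since Grk4 was below the filter on dim genes. There 0 were called at 6 months (0.0082% and 0% of all genes) or at 12 months (3.15% and 6.93%). None of the 8 had an unadjusted p below 0.05. Of all genes, 471 and 1834 of 12201 did in microglia at 6 and 12 months, and 349 and 3896 of 12628 in negative cells. Apart from Htt and Abhd1, the effects of the tested genes in zQ175 at 12 months ran from -0.21 to 0.23 in astrocytes, from -0.22 to 0.38 in microglia and from -0.24 to 0.31 in negative cells. The 0.23 was that of Grk4, and it turned to -0.17 with the 2 probe sets of Grk4 averaged (adjusted p = 0.712). Nor was any of the 9 called in the differences of the zQ175 effect at 12 months between fractions. These called 1.84% (astrocytes minus microglia), 3.65% (astrocytes minus negative cells) and 6.84% (microglia minus negative cells) of all genes. At an unadjusted p below 0.05, 1, 0 and 1 of the 9 passed, beside 1513, 2762 and 3465 of the 12588 genes tested.

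Grk4 in zQ175 is given by its values where it was dim. In microglia at 12 months it was at 5.67, 6.14, 5.42 and 5.71 in zQ175 and at 4.34, 3.92, 5.10 and 4.82 in WT, and in negative cells at 5.67, 6.02, 6.56 and 6.24 against 5.32, 5.60, 5.52 and 5.54. All zQ175 samples exceeded all WT samples in both, as 9.46% and 18.6% of all genes did in either direction. In the fit of all probe sets the differences were 1.19 ± 0.34 (adjusted p = 0.134) and 0.63 ± 0.24 (adjusted p = 0.151), and neither was called.

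The remaining genes showed little. Sh3bp2, Nop14, Rgs12, Mfsd10 and Fam193a were called in no contrast of a mutant with its WT controls with all samples in the fit. With 1 sample left out, calls were gained at 12 weeks in R6/2 astrocytes for Fam193a (0.28 without WT sample 20, adjusted p = 0.0477) and Sh3bp2 (-0.46 without R6/2 sample 17, adjusted p = 0.0456), and in R6/2 negative cells for Sh3bp2 (-0.48 without WT sample 16, adjusted p = 0.0381). Only Sh3bp2 among them was fully separated from WT in such a contrast, in negative cells at 6 weeks. There it was at 8.57, 8.93, 8.72, 8.55 and 9.08 in R6/2 and at 9.28, 9.10, 9.16, 9.14 and 9.25 in WT. All R6/2 samples lay below all WT samples by a narrow margin (9.08 against 9.10), and 4.82% of all genes were as fully separated in either direction. At 12 weeks the ranges overlapped (7.92 to 8.13 in R6/2 and 7.80 to 9.12 in WT). Rgs12 was 0.40 ± 0.19 lower in R6/2 microglia at 12 weeks, with all 6 samples below the WT mean and an adjusted p of 0.236.

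**Figure D4:**
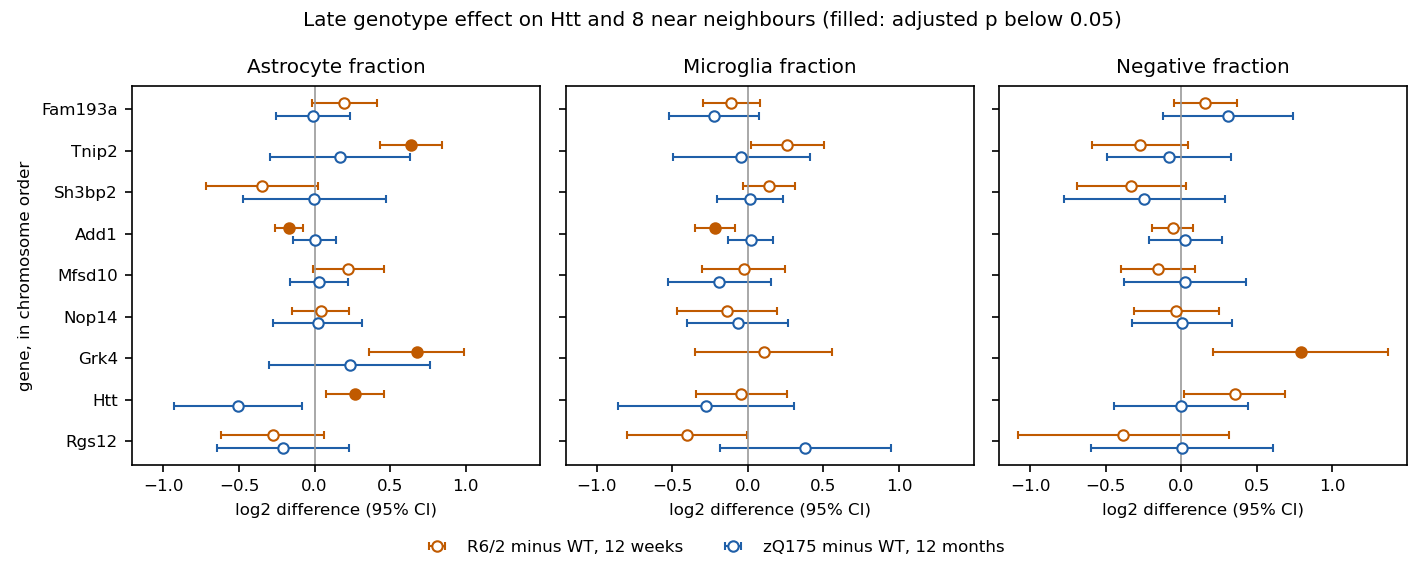
Difference between mutant and WT (log2, horizontal axis, with its 95% confidence interval) of Htt and 8 neighbours in chromosome order, for R6/2 at 12 weeks (orange) and zQ175 at 12 months (blue), filled where called. In astrocytes Tnip2, Grk4, Htt and Add1 are filled for R6/2, no zQ175 point is filled, and Grk4 has no zQ175 point in microglia and negative cells, where it was below the filter.

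The change of an effect from the earlier to the later age was called for none of the genes tested in any of the 6 comparisons. In R6/2 astrocytes, which came closest, it was 0.56 ± 0.14 for Tnip2 (adjusted p = 0.0571) and 0.76 ± 0.22 for Grk4 (adjusted p = 0.0998), and 1.15% of all genes were called. The share of all genes called was 0.251% in R6/2 microglia and 4.25% in R6/2 negative cells, and in zQ175 it was 0.00808% in astrocytes, 0% in microglia and 0.0317% in negative cells. At an unadjusted p below 0.05, 3 of the 10 passed in R6/2 astrocytes, beside 1568 of 12209 genes tested. None passed in the other 5 comparisons, beside 951 of 11958 genes in R6/2 microglia and 2082 of 12480 in R6/2 negative cells. In zQ175, 562 of 12380 genes passed in astrocytes, 841 of 12201 in microglia and 2716 of 12628 in negative cells.

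The fractions of WT mice differed in nearly every gene, as did most of the genes measured. Of the 9 genes other than Abhd1, 9 were called between astrocytes and microglia (85.6% of all genes), 7 between astrocytes and negative cells (75.9%) and 9 between microglia and negative cells (83.7%). The immune adaptor gene Sh3bp2 was at 10.82 in microglia, 8.75 in negative cells and 8.09 in astrocytes. Tnip2 had the same order, at 8.84, 7.51 and 6.97, and Mfsd10 was also highest in microglia (8.91, against 7.88 and 7.72). Rgs12 went the other way, at 6.48 in microglia, 8.75 in astrocytes and 9.46 in negative cells. Grk4 (6.70) and Add1 (12.51) were highest in astrocytes. Nop14 and Fam193a were higher in microglia than in the other two fractions, at 9.78 and 9.56, and did not differ by the test between astrocytes and negative cells.

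WT mice in months had lower levels of several of these genes than WT mice in weeks. Grk4 was lower by 1.01 ± 0.14 in astrocytes, 1.41 ± 0.20 in microglia and 0.63 ± 0.20 in negative cells, and Tnip2 by 0.81 ± 0.11, 0.97 ± 0.12 and 0.91 ± 0.12. Without Abhd1, 3 of 9 genes were called in astrocytes, 6 of 9 in microglia and 3 of 9 in negative cells, all lower, where 46%, 51.5% and 38.5% of all genes were called in either direction. Htt was among those called in microglia, lower by 0.47 ± 0.15 (adjusted p = 0.0102), and was not called in astrocytes and negative cells (-0.01 and -0.04). With the mean of its probe sets Htt was called in astrocytes too (-0.28, adjusted p = 0.0229). Also called were Nop14, Rgs12 and Sh3bp2 in microglia, lower by 0.65 ± 0.12, 0.52 ± 0.17 and 0.23 ± 0.06, and Add1 in astrocytes and negative cells, lower by 0.18 and 0.32.

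The wider surroundings of Htt were described through the 60 measured genes before and the 60 after it, of which 85 to 88 were tested in each fit. In R6/2 astrocytes at 12 weeks 20 of 86 were called, or 23.3%, against 28.7% of all genes, and in negative cells 22 of 87, or 25.3%, against 26.2%. In R6/2 microglia it was 7 of 85, or 8.24%, against 6.08%. In zQ175 at 12 months 2 of 86 were called in astrocytes, or 2.33% against 5.9%, 10 of 88 in negative cells, or 11.4% against 6.93%, and 0 of 85 in microglia against 3.15%. At the early ages 1 of 87 was called in R6/2 negative cells, and 0 in the other 5 contrasts. The median effect of the surrounding genes lay between -0.07 and 0.09 in the 12 contrasts, and that of all genes between -0.05 and 0.05.

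In R6/2, 10 of these surrounding genes were called in the same direction in at least 2 contrasts, and the first 6 by rank, Grk4 among them, were named. The share of all genes called more than once was not counted in either model, so these calls have no background to be read against. Zfyve28, the ninth measured gene before Htt and a regulator of endosomal receptors, was higher in all 3 fractions of R6/2 at 12 weeks, by 0.57 ± 0.21 in astrocytes (adjusted p = 0.0477), 0.95 ± 0.20 in microglia (0.00657) and 0.73 ± 0.20 in negative cells (0.0108). In zQ175 at 12 months it was higher by 0.66 ± 0.14 in astrocytes (adjusted p = 0.0162) and by 0.79 ± 0.18 in negative cells (0.0251). It was the 1 gene of the 120, of which 85 to 88 were tested in each fit, called more than once in zQ175. Dok7, an activator of the muscle kinase MuSK, was higher in negative cells, by 1.48 ± 0.25 in R6/2 at 6 weeks (adjusted p = 0.00615), 2.57 ± 0.24 at 12 weeks (1.48e-07) and 1.60 ± 0.22 in zQ175 at 12 months (0.00187). In WT mice at 12 weeks Dok7 was at 9.90 in astrocytes and 6.10 in negative cells. At that age 6 of 7 astrocyte markers were higher in R6/2 negative cells, where 26.2% of all genes were called. In R6/2 at 6 weeks and zQ175 at 12 months 0 of the 7 were called, where 0.377% and 6.93% of all genes were. Their median effects were 0.22 and -0.11. The part of these markers in the rise of Dok7 was not tested in any of these contrasts. Htra3, a serine protease gene, was higher in R6/2 microglia (0.82 ± 0.19) and negative cells (1.03 ± 0.22) at 12 weeks. Lower were Hs3st1, a heparan sulfate sulfotransferase gene, in R6/2 astrocytes (by 1.005 ± 0.177) and negative cells (by 0.70 ± 0.13), and Nsg1, an endosomal protein gene of neurons, in R6/2 astrocytes (by 0.59 ± 0.08) and microglia (by 0.68 ± 0.15).

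**Figure D5:**
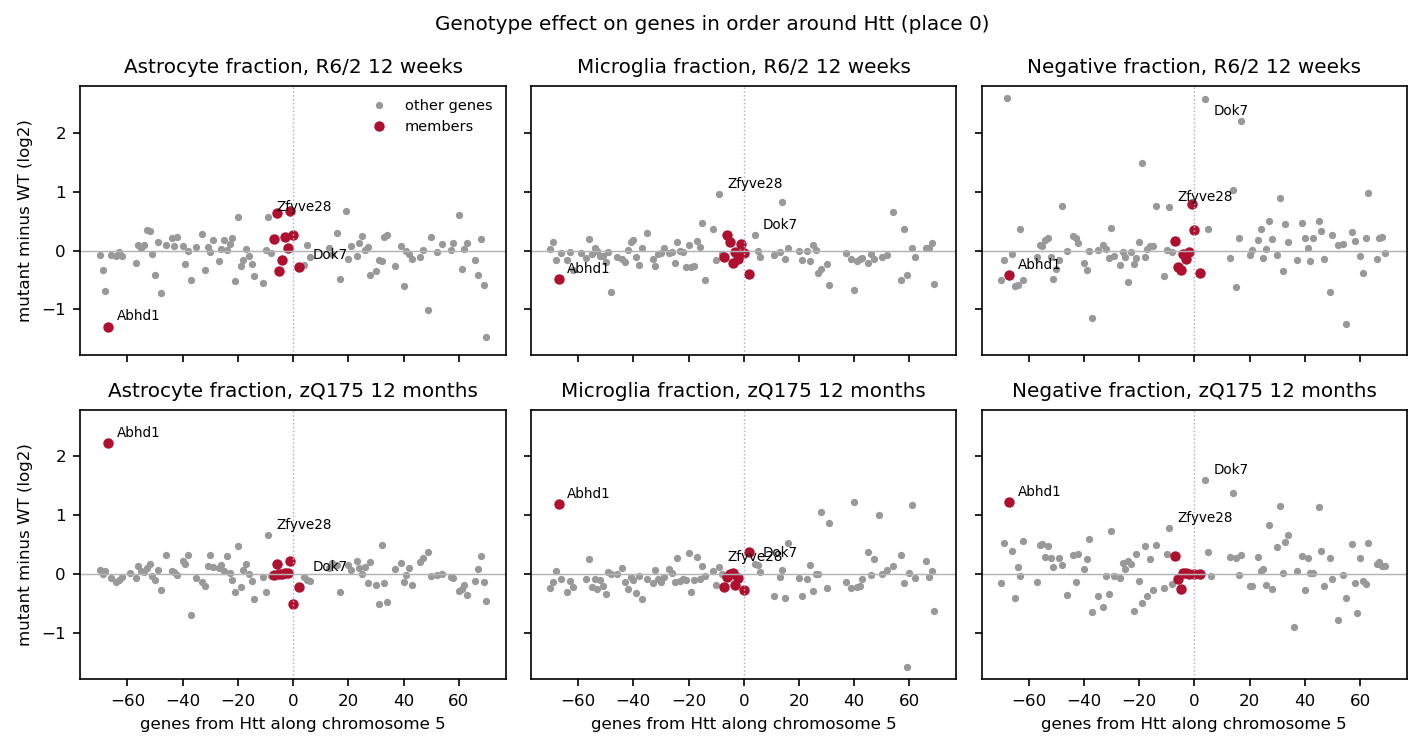
Difference between mutant and WT (log2, vertical axis) of the tested genes around Htt at the later ages, by their place from Htt in measured genes along chromosome 5 (horizontal axis), with the 10 genes of the list in red and the others in grey. Abhd1 stands far from Htt in place and, in zQ175, apart from most genes in effect (2.22 in astrocytes), while most other genes lie close to 0 on both sides of Htt.

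Of 12 genes for partners of the huntingtin protein, 10 were measured and Pacsin1 was the 1 called more than once. Pacsin1, which shapes membranes in endocytosis, rose by 0.91 ± 0.14 in R6/2 astrocytes at 12 weeks (adjusted p = 0.000114) and by 1.37 ± 0.27 in zQ175 astrocytes at 12 months (0.00838). In negative cells it rose by 2.26 ± 0.21 in R6/2 (adjusted p = 1.63e-07) and by 2.52 ± 0.47 in zQ175 (0.0104). In R6/2 at 12 weeks, Setd2 was also higher and Sh3gl3 lower in astrocytes, and Hap1 and F8a were higher in negative cells, which made 3 of 9 and 3 of 10 tested, where 28.7% and 26.2% of all genes were called. In zQ175 negative cells at 12 months Dctn1 and Hip1r were higher as well, 3 of 10, and in zQ175 astrocytes Pacsin1 was the 1 of 9, where 6.93% and 5.9% of all genes were called. No partner gene was called in microglia or at the early ages.

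The genes whose 24 group means followed those of Htt most closely over all genes were Mto1, a mitochondrial transfer RNA modifier (Pearson r = 0.905), Atpaf2 (0.897), Tgds (0.897), Plekhm2 (0.896) and Rab3gap2 (0.894). For Abhd1 they were 2700046G09Rik (0.851), Emc9 (0.850), Fam214b (0.849), Slc9a8 (0.842) and Nudt8 (0.841). These are descriptions over 24 means of samples that carry the same 37 numbers in each fraction. The part of the fractions and cohorts in such a likeness was not tested. None of the 10 genes was among the 5 most like Htt or the 5 most like Abhd1.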

How the data were processed

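The authors deposited log2 expression values for 45101 probe sets in 111 samples. The submitters' processing notes name the affy package, RMA (background correction, quantile normalization and probe summary) and limma, with no versions. RMA levels depend on each probe set's affinity, so levels were never compared between genes. Array medians lay between 6.26 and 6.65, and no 2 arrays were identical. No depth or background signal per array was used, and the number of arrays limits the precision.

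Probe sets were named through the platform annotation. Of them, 34958 had 1 gene symbol, 932 several and 9211 none, and 18032 of the 18194 genes matched the RefSeq table. Gene starts and promoter windows were taken from RefSeq GRCm38.p6. A gene with several probe sets was read from the brightest on average across the 111 samples. Genes dimmer on average than the 40th percentile of probe sets in the samples of a fit were not tested in it.

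Tests were two-sided moderated tests in limma 3.58.1 under R 4.3.3 (with the data.table package, version 1.17.8), called at a Benjamini-Hochberg adjusted p below 0.05. Mutant and WT were compared in fits of the 4 groups of a fraction and model, the models and WT ages in fits of the 8 groups of a fraction, fraction differences in WT with age group as a term, and fraction differences of effects in fits of 12 groups. Single probe sets were fitted over all 45101 without a filter. The pipeline was tested on simulated data. Samples are pools of litters, and p-values measure the spread between these pools.

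The members, lists and tests were chosen with earlier results of these data known. Named were all 10 genes, surrounding genes called in the same direction in at least 2 of the 6 contrasts of a model (up to 6 genes in R6/2, by number of contrasts and then size), partner genes called in at least 2 contrasts, and the 5 genes most like Htt and Abhd1. The partner genes called once were also named, after their values were seen.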

Additional observations from a re-analysis of the deposited data

Results flagged for a closer look

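Single samples stood apart from the rest of their group, by Dixon's criterion at its 95% critical value, in 19 of the 240 groups of a gene examined, where chance alone gives about 1 in 20, or 12. For Htt in astrocytes these were R6/2 sample 17 at 12 weeks, at 9.17 with the others from 8.67 to 8.85, WT sample 12 at 12 weeks, at 8.29 with the others from 8.57 to 8.67, and WT sample 36 at 12 months, at 9.14 with the others from 8.60 to 8.63. Each of the 3 lay on the outer side of its comparison, and the R6/2 call was lost without either of the first 2. The late difference between the models held without each of them.

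For the other genes, the samples that stood apart were spread over the groups. Grk4 was at 6.44 in R6/2 astrocyte sample 7 at 6 weeks (others 6.97 to 7.17), at 4.52 in R6/2 microglia sample 6 at 6 weeks (others 5.56 to 5.95) and at 5.87 in zQ175 astrocyte sample 32 at 12 months (others 6.62 to 6.71). Add1 was high in zQ175 sample 26 at 6 months, at 12.46 in astrocytes (others 12.24 to 12.27) and 12.30 in negative cells (others 11.95 to 11.96), and so was Mfsd10 in the microglia of that sample, at 8.95 (others 8.59 to 8.63). Tnip2 was at 7.68 in WT negative sample 1 at 6 weeks (others 7.30 to 7.40). In WT astrocyte sample 25 at 6 months both Tnip2, at 7.05 (others 6.15 to 6.27), and Rgs12, at 9.19 (others 8.39 to 8.46), were high.

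Nop14 was at 9.61 in WT negative sample 24 at 6 months (others 8.99 to 9.05), and Mfsd10 at 7.49 in WT astrocyte sample 12 at 12 weeks (others 7.88 to 8.04). Rgs12 was at 6.65 in R6/2 negative sample 7 at 6 weeks, far below the others (8.46 to 8.73). Fam193a was at 8.79 in R6/2 astrocyte sample 9 at 6 weeks (others 8.51 to 8.59), at 9.01 in R6/2 negative sample 6 at 6 weeks (others 8.68 to 8.73) and at 8.44 in WT negative sample 34 at 12 months (others 9.16 to 9.25). Abhd1 was at 9.15 in R6/2 microglia sample 6 at 6 weeks (others 8.22 to 8.38), and sample 6 was also the highest of its group for Abhd1 in the other two fractions.

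Effects that differed between groups by the test were those on Htt in astrocytes, zQ175 at 12 months minus R6/2 at 12 weeks (-0.77, adjusted p = 0.0136), and on Tnip2 in R6/2 at 12 weeks, astrocytes minus negative cells (0.91, adjusted p = 0.000101) and microglia minus negative cells (0.53, adjusted p = 0.0234). For Abhd1 all zQ175 samples at 12 months lay above their WT mean and all R6/2 samples at 12 weeks below theirs. The effects differed by 3.51 in astrocytes, 1.67 in microglia and 1.64 in negative cells, which was not tested because the zQ175 values chose the gene.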

How the results depend on the processing

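The Htt difference between the models in astrocytes was called under every alternative tried for it, and the fall of Abhd1 in R6/2 astrocytes under every alternative and left-out sample. The share of all genes called was not counted under the alternatives, so counts of the list under them have no background beside them. Averaging the probe sets of a gene moved the most counts of the list. It called 3 genes in the late difference between the models in astrocytes (Htt, Add1 and Grk4), 5 in WT months minus weeks in astrocytes (Htt and Rgs12 added), 1 (Grk4) in the age difference in R6/2 astrocytes, 1 in the R6/2 effect in astrocytes minus microglia, 2 in microglia minus negative cells and 0 in R6/2 microglia at 12 weeks. With it Rgs12 in WT months minus weeks in astrocytes turned from 0.02 to -0.58. The R6/2 microglia count at 12 weeks was also 0 with array weights, re-centred arrays, no filter or without the samples lacking Y-linked expression, and the negative count 0 with re-centred or quantile-normalized arrays. Array weights called 1 gene, Add1, in R6/2 astrocytes and 1 in negative cells at 6 weeks (adjusted p = 0.0216 and 0.00855). With 8 groups in a fit, 1 gene was called in zQ175 astrocytes (Htt) and 1 in microglia (Grk4) at 12 months. The cause was not tested. Re-centring also ended the call of Add1 in WT astrocytes, months minus weeks (-0.087, adjusted p = 0.107).

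With 20 genes on either side of Htt, 9 of 28 were called in R6/2 astrocytes (32.1%, against 28.7% of all genes), 6 of 28 in microglia (21.4%, against 6.08%) and 9 of 27 in negative cells (33.3%, against 26.2%) at 12 weeks, and 3 of 27 in zQ175 negative cells at 12 months (11.1%, against 6.93%). With 60 on either side and no filter on dim genes, 6 of 120 were called in zQ175 negative cells, against 10 of 88 with it. The share of all genes called without the filter was not counted. Leaving out 1 sample in turn gave counts from 0 to 1 in R6/2 microglia and negative cells at 12 weeks, from 4 to 5 in R6/2 astrocytes, and from 0 to 2 for the R6/2 age difference in astrocytes (Tnip2 without R6/2 sample 13, Tnip2 and Grk4 without sample 15). Without WT sample 18 Tnip2 was called in R6/2 negative cells (-0.40, adjusted p = 0.0495).

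Samples of one number in different fractions deviated together (r above 0.1) in 75 of 111 pairs, not in all. These correlations cannot exclude that a number marks the same pool in each fraction. The main fits between fractions treated the arrays as independent, and the number served as a block in an alternative fit only. The numbers 12 and 20 lacked Y-linked expression in all fractions, with r from 0.51 to 0.66 and from 0.25 to 0.36. With the replicate block, 2 genes were called in the R6/2 effect in astrocytes minus negative cells, with Abhd1 added (-0.87, adjusted p = 0.0265), and 2 in microglia minus negative cells, with Add1 added (-0.16, adjusted p = 0.0480). The block changed no other call. Mutant and WT samples shared no numbers, so the genotype comparisons had no paired fit.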
